A study of Mus musculus with 6 samples.

Results

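The small leucine-rich proteoglycans described here are 8 genes, Bgn, Dcn, Aspn, Fmod, Lum, Prelp, Omd and Ogn, taken by symbol from 29587 gene rows. They were measured in messenger RNA of apoptotic osteoblasts from young mice and from old mice, with 3 libraries in each group. Bone fragments were cultured, the adherent cells were passaged as bone marrow mesenchymal stem cells, differentiated in osteogenic medium and finally made apoptotic by ultraviolet light, and this was shared by both groups. The labels give the stages young and old and the genotype none, and neither age in months nor strain or sex is stated in them. The cells were therefore passaged stromal cells differentiated in culture, not osteoblasts taken from bone. Nothing in the labels says that a group's libraries are separate animals or cultures.

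Small leucine-rich proteoglycans are secreted proteins whose core is a curved stack of leucine-rich repeats, which lies along collagen fibrils and helps to set their width and spacing. Many carry chondroitin, dermatan or keratan sulfate chains, and several bind growth factors of the TGF-beta family. In bone they are part of the matrix that osteoblasts lay down. By sequence they fall into classes: Bgn (biglycan), Dcn (decorin) and Aspn (asporin) in class I, Fmod (fibromodulin), Lum (lumican), Prelp and Omd (osteomodulin) in class II, and Ogn (osteoglycin) in class III.

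No member passed the test of old against young over all genes, and the 8 levels kept their order in every library. Aspn and Omd were the 2 members whose young and old libraries did not overlap, both lower in old, as 10.2% of all tested genes were. Young replicate 1 lay below young replicates 2 and 3 in 7 of the 8 members, and without it 5 members were lower in old, where 19.4% of all tested genes were, while the Bgn libraries still overlapped. Ratios of Aspn and of Omd to most other members, taken inside each library, separated all 3 young from all 3 old libraries, young replicate 1 included. Those of Aspn to Bgn, Omd to Prelp and Aspn to Omd overlapped. These ratios were taken after the data were seen. Groups were separate in 10 of 28 ratios between members (35.7%), where they were in 22.7% of all pairs of tested genes. Each of the 10 held Aspn or Omd. Against each other tested gene, the ratio of Aspn was lower in old without overlap in 54.9%, and that of Omd in 50.6%.

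Facts about the libraries come before the values. Each library held 64881180 to 84535939 reads counted in genes, and 462 to 70543 of them fell on a member. These reads were recovered by taking the smallest step of RPKM as 1 read, and even numbers prevailed among low genes, so the unit may be something other than single reads. Young replicate 1 stood apart: it correlated with the other young libraries at 0.949 and 0.962 over 12015 tested genes, where these correlated with each other at 0.996 and the old libraries at 0.995 to 0.997 (Pearson's r across genes, which are not independent replicates). Mitochondrially encoded genes took 1.05% of its reads, 2.13% and 2.29% in the other young libraries and 1.62 to 1.89% in old, and the part of this in the results was not tested. Of 12 listed osteoblast markers, 9 reached 1 RPKM (reads per kilobase of gene length, scaled to 1000000 reads) in some library. Sparc was at 1015 to 1165 RPKM. The defining markers Alpl, Bglap and Phex did not reach 1, at 0.421 to 0.757, 0.39 to 0.9 and 0.0833 to 0.348 RPKM. Bglap and Bglap2 did not pass the filter for testing. Their means were 0.416 and 0.478 RPKM in young against 0.742 and 1.01 RPKM in old. Both were higher in old without overlap, as 10.6% of all tested genes were, while the groups of Alpl and Phex overlapped. Of the 8 tested, limma called Spp1 higher and Sp7 lower in old with all libraries. Without young replicate 1 it called 2 higher (Spp1 and Dmp1) and 5 lower (Sp7, Runx2, Ibsp, Col1a1 and Col1a2). Of all tested genes, 13.2% were higher and 19.4% lower in that fit. All 5 endothelial and all 5 adipocyte markers stayed under 1 RPKM in all libraries, with summed levels of 0.0994 to 0.139 and 0.064 to 0.111 RPKM in young and of 0.104 to 0.122 and 0.108 to 0.141 RPKM in old. Of 7 blood cell markers in the table, 5 stayed under 1 RPKM and Ptprc, which defines leukocytes, was at 0 to 0.00281 RPKM. The other 2 were Lyz2, at 6.53 to 8.53 RPKM, and Cd68, at 0.54 to 1.04 RPKM, and the list summed to 7.95 to 9.22 RPKM in young and 8.55 to 9.99 RPKM in old. Cartilage and tendon markers were present in part: Sox9 at 12.7 to 19.7 RPKM, Col2a1 at 21.5 to 53.6 RPKM and Scx at 5.59 to 8.68 RPKM, while Col10a1 and Tnmd were at 0 to 0.0158 and 0 to 0.0392 RPKM. Summed fibroblast and tendon markers, 9 listed, reached 630 to 922 RPKM in young and 732 to 735 RPKM in old, nearly all from S100a4. The summed cartilage markers, 6 in the table, were at 34.4 to 73.4 and 53.3 to 56.9 RPKM, and both tested ones, Sox9 and Col2a1, were lower in old without young replicate 1 (limma adjusted p = 0.0244 and 0.00913). Smooth muscle markers, 5 listed, summed to 504 to 512 RPKM in young and 536 to 611 RPKM in old, without overlap. Nearly all of this came from Acta2 and Tagln, while Myh11, Cnn1 and Des stayed under 1 RPKM. Acta2 and Tagln were each higher in old without overlap, as 10.6% of all tested genes were. The part of these markers in the results was not tested. In bulk RNA, fewer cells of one type and less of a transcript per cell cannot be told apart.

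The members sit at 4 places in the genome. Aspn (chromosome 13, 49544443 to 49567565, mm10), Omd (49582766 to 49592609) and Ogn (49608071 to 49624500) lie in a row on the plus strand, with gaps of 15200 and 15461 bases, and Ecm2, a related gene, lies 11653 bases before Aspn. All 3 lie within an intron of Cenpp (49465759 to 49627254), a centromere protein gene on the opposite strand, and share no exon base with it. Dcn (chromosome 10, 97479500 to 97518162) and Lum (97565501 to 97572703) are neighbours 47338 bases apart on the plus strand. Prelp (chromosome 1, 133910304 to 133921414, minus strand) and Fmod (134037254 to 134048277, plus strand) are 115839 bases apart, and Bgn lies alone on chromosome X (73483602 to 73495933).

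The 250 bases before the RefSeq start are printed for Bgn and for the 3 members of the chromosome 13 row (GRCm38.p6, the assembly behind mm10, 5′ to 3′). Bgn was the member whose groups overlapped with and without young replicate 1. Capitals mark matches on either strand to any of 6 motifs. The TATA box was searched as TATAAA, the Runx motif as TGTGGT and the AP-1 motif as TGANTCA. The GC box was searched as GGGCGG, the TEAD motif as GGAATG, and the last motif was the interferon-stimulated response element.
Bgn (chrX:73483351-73483600, plus strand): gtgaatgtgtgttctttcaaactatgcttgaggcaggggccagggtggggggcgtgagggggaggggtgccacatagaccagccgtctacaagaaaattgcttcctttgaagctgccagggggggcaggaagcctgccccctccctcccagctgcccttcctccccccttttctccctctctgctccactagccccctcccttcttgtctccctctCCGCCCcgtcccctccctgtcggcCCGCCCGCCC
Aspn (chr13:49544193-49544442, plus strand): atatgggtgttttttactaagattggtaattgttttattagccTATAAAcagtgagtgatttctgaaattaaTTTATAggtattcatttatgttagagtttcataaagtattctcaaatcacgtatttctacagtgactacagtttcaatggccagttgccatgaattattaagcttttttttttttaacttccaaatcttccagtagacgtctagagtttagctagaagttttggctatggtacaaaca
Omd (chr13:49582212-49582461, plus strand): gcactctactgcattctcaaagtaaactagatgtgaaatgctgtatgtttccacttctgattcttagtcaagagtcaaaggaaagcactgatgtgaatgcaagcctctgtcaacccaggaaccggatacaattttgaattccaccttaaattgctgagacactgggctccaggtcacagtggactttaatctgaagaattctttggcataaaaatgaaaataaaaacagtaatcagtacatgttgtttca
Ogn (chr13:49607765-49608014, plus strand): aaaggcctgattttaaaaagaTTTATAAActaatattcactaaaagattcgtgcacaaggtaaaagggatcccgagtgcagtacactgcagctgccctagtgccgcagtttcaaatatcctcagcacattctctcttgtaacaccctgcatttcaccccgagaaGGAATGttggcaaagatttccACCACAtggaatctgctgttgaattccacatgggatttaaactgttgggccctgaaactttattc
RefSeq's table matched 6 of the 8 members, and Dcn and Lum were not matched. The Bgn sequence was 64.4% G and C and those of Aspn, Omd and Ogn 30%, 38.4% and 42%, beside a median of 52.4% over 32851 promoters of the same length. Fmod and Prelp, matched but not printed, were nearer to that median, at 51.2% and 55.6%. Bgn held 3 GC box matches, near the start, where 32.7% of all promoters hold at least 1. Aspn held 2 TATAAA matches, at 207 and 178 bases before the start, and Ogn held 2 that overlap each other at 229 and 227 bases, where 12.4% of all promoters hold 1 or more. Ogn alone among the 6 held a Runx match and a TEAD match, which 14% and 12.6% of all promoters hold. AP-1 and interferon-stimulated response element matches, in 6.75% and 2.98% of all promoters, were found in none of the 6, and the windows of Fmod, Prelp and Omd held none of the 6 motifs. The deposited Omd gene model begins 304 bases after the RefSeq start, so this window need not be the promoter used in these cells. A match is a stretch of letters and not a binding site.

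Fmod was highest in each of the 6 libraries, followed by Bgn, Aspn, Dcn, Lum, Ogn, Omd and Prelp, with the same order in every library. Fmod was at 178 ± 33.4 RPKM in young against 163 ± 1.56 RPKM in old, and Prelp at 3.47 ± 1.31 and 2.91 ± 0.157 RPKM (SD, n = 3 each). Every neighbouring pair in this order was separated by ranges that did not overlap within a group, except Lum and Ogn, whose ranges overlapped in both young and old. By mean level Fmod stood above 97.1% of the tested genes in young and Prelp above 35.7%.

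**Figure D1:**
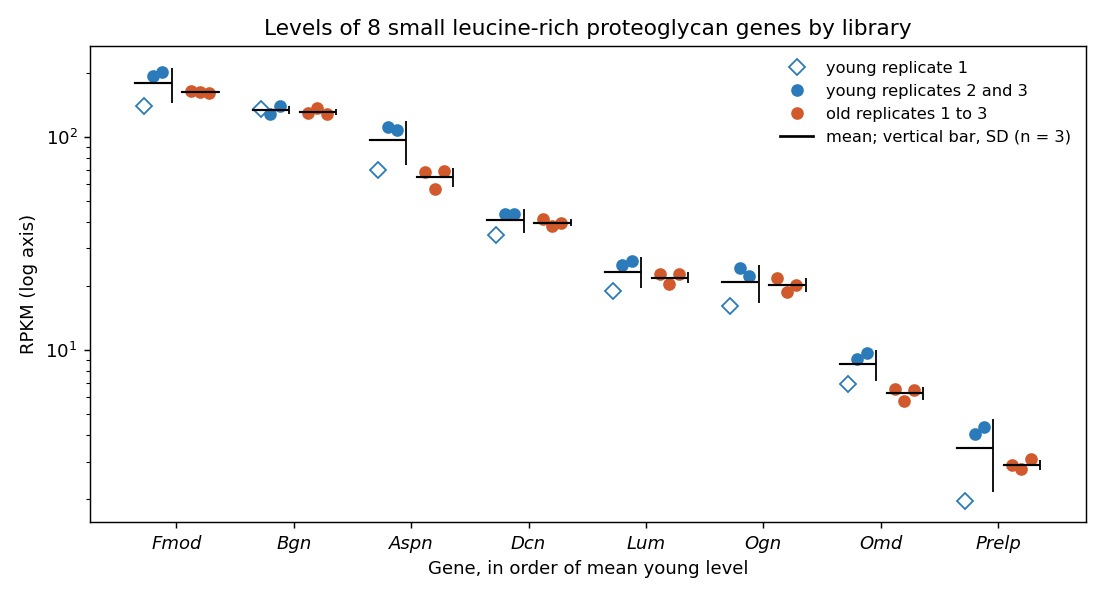
RPKM on a log axis for each of the 8 genes, with 1 point per library, horizontal lines at the group mean and vertical bars of 1 SD (n = 3). Young replicate 1 (open diamonds) lies below the other young libraries in every gene but Bgn, and the order from Fmod to Prelp is the same in each library.

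The order of the first pair depends on the gene length used. The deposited length of Bgn is 6099 bases, the merged length of all its listed exons, and GENCODE release M21 lists 8 Bgn transcripts, 3 of them with retained introns. Its principal coding transcript covers 2419 of these bases. If all reads lie on that transcript, the level of Bgn was 338 ± 15.3 RPKM in young against 331 ± 11.5 RPKM in old (SD, n = 3 each), above Fmod at 189 ± 35.4 and 173 ± 1.65 RPKM on the same footing. The other 7 lengths changed by at most 1.19-fold and the other members kept their places. A change of length scales a gene's RPKM alike in all 6 libraries, but not its share of a sum over genes.

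The 8 genes together took 0.162%, 0.191% and 0.2% of all reads in the young libraries, in replicate order, and 0.17%, 0.169% and 0.168% in the old. The summed level was 506 ± 71 RPKM in young against 450 ± 8.08 RPKM in old (SD, n = 3 each). Young replicates 2 and 3 were highest and young replicate 1, at 425 RPKM, was lowest of all 6, so the groups overlapped. Fmod and Bgn made up 35.1 ± 1.82% and 26.9 ± 4.36% of this sum in young and 36.2 ± 0.483% and 29.2 ± 1.5% in old (SD, n = 3 each). Aspn made up 18.9 ± 2.11% in young and 14.4 ± 1.29% in old, with ranges that did not overlap. The ranges of Omd and Dcn did not overlap either. Omd was lower in old, at 1.7 ± 0.0603% in young and 1.4 ± 0.0742% in old. Dcn was higher in old, at 8.06 ± 0.165% and 8.82 ± 0.196% (SD, n = 3 each). These shares are parts of the same sum and depend on each other, and no like figure over all tested genes was computed. They rest on the deposited lengths, and the separation of Dcn need not hold with the shorter length of Bgn.

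Old and young were compared with limma on log2(RPKM + 1) over 12015 genes at 1 RPKM or more in at least 3 libraries, with p-values adjusted over all of them by the Benjamini-Hochberg method. All 8 members passed that filter, and none through one group alone. The question put to each gene was whether its transcript level changed between the young and the old stage. Of the members, 0 passed an adjusted p under 0.05, where 1.57% of all tested genes did (1.47% higher and 0.0999% lower in old). At an unadjusted p under 0.05 there were 2 members, Aspn and Omd, both lower, where 11.2% of tested genes passed and 5.25% were lower, and limma's voom on reads recovered from the RPKM also called 0. The median log2 fold change of the members was -0.10, beside 0.01 over all tested genes.

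Among class I members, Aspn, which binds collagen and TGF-beta, had the largest difference. Its young libraries, in replicate order here and below, were at 70.4, 112 and 107 RPKM and its old libraries at 68.9, 57.2 and 68.9 RPKM. Young replicates 2 and 3 were far above the rest, and young replicate 1 lay just above the highest old library. The log2 fold change, old against young, was -0.54 ± 0.20 (SE, limma adjusted p = 0.378, 95% interval -1.02 to -0.06). Its mean level was 32.7% lower in old. Non-overlapping groups, lower in old, were seen in 10.2% of tested genes, beside 2 of the 8 members.

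Bgn, which carries chondroitin or dermatan sulfate chains and is abundant in bone matrix, varied least across the libraries. Its young libraries were at 135, 128 and 139 RPKM and its old ones at 129, 136 and 128 RPKM. The groups overlapped fully, and young replicate 1 lay between the other young libraries. The log2 fold change was -0.03 ± 0.09 (SE, limma adjusted p = 0.979), and the 95% interval ran from -0.24 to 0.18. Dcn, which binds collagen fibrils through its core and usually carries a single sugar chain, was at 34.8, 43.6 and 43.7 RPKM in young and at 41.3, 38.1 and 39.7 RPKM in old. All old libraries lay between young replicate 1 and the other young libraries. Its log2 fold change was -0.03 ± 0.12 (SE, limma adjusted p = 0.987, 95% interval -0.31 to 0.25).

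In class II, Omd, a keratan sulfate proteoglycan made by osteoblasts and held in mineralised matrix, had the second largest difference. It was at 6.95, 9.11 and 9.75 RPKM in young and at 6.61, 5.8 and 6.49 RPKM in old, so the lowest young library was just above the highest old one. The log2 fold change was -0.39 ± 0.14 (SE, limma adjusted p = 0.36, 95% interval -0.72 to -0.05), and the mean level was 26.8% lower in old. Fmod, which binds fibrillar collagen and guides its assembly, was at 140, 193 and 201 RPKM in young and at 165, 162 and 162 RPKM in old. The old libraries were close together and lay between young replicate 1 and the other young libraries. Its log2 fold change was -0.11 ± 0.15 (SE, limma adjusted p = 0.948).

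Lum, which regulates collagen fibril spacing, was at 19, 25.1 and 26.1 RPKM in young and at 22.7, 20.4 and 22.7 RPKM in old. Prelp, which links collagen to basement membranes, was at 1.97, 4.06 and 4.37 RPKM in young and at 2.89, 2.76 and 3.07 RPKM in old. In both, all old libraries lay between young replicate 1 and the other young libraries. The log2 fold changes were -0.08 ± 0.14 for Lum and -0.15 ± 0.23 for Prelp (SE, limma adjusted p = 0.966 and 0.958). The intervals, -0.42 to 0.26 and -0.71 to 0.41, leave room for changes in either direction. Prelp overlaps the predicted gene Gm15851 on the opposite strand. Gm15851 was at 5.35, 12.1 and 13.3 RPKM in young and at 8.81, 9.21 and 8.81 RPKM in old. Without young replicate 1 it was lower in old (log2 fold change -0.46, limma adjusted p = 0.00411). Without a known strand setting the reads of the 2 genes cannot be told apart. The value of Prelp is therefore uncertain, with and without young replicate 1.

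Ogn, the class III member, also known as mimecan, was at 16.2, 24.2 and 22.2 RPKM in young and at 21.8, 18.7 and 20.2 RPKM in old. The old libraries again lay between young replicate 1 and the other young libraries. Its log2 fold change was -0.03 ± 0.16 (SE, limma adjusted p = 0.991, 95% interval -0.42 to 0.37). Ogn shares its chromosomal row with Aspn and Omd but not their non-overlapping groups.

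Young replicate 1 was the outlying library in most members. It lay below young replicates 2 and 3 in 7 of 8 members, by 0.32 to 0.81 on the log2 scale, where 57.2% of tested genes had it below both. In Dcn, Fmod, Lum, Prelp and Ogn it lay below all 3 old libraries as well. In the same 7 members it was nearer to the old mean than to the mean of the other young libraries. Like shares over all tested genes were not computed for these counts. Over all tested genes, young replicate 1 correlated with the old libraries at 0.959 to 0.968 and with the other young libraries at 0.949 and 0.962 (Pearson's r).

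Without young replicate 1, 0 members were higher and 5 were lower in old, Aspn, Omd, Prelp, Fmod and Lum, where 13.2% of tested genes were higher and 19.4% lower (32.6% in all). The fit then rests on 2 young and 3 old libraries. Aspn was 40.7% lower in old (log2 fold change -0.75 ± 0.09, SE, limma adjusted p = 0.00283), Omd 33.2% lower (-0.52 ± 0.07, adjusted p = 0.00467) and Prelp 31% lower (-0.42 ± 0.07, adjusted p = 0.00684). Fmod was 17.5% and Lum 14.4% lower, with log2 fold changes of -0.28 ± 0.05 and -0.22 ± 0.06 (SE, limma adjusted p = 0.00895 and 0.0413). Dcn and Ogn, at -0.14 ± 0.05 and -0.19 ± 0.08, did not pass (SE, limma adjusted p = 0.0881 and 0.0921). Bgn was at -0.02 ± 0.06 (SE, limma adjusted p = 0.772, 95% interval -0.17 to 0.12). Old and the remaining young libraries did not overlap in 7 members, lower in old, as in 38.8% of tested genes, with 0 members and 23.7% of tested genes higher. Library weights, which limma estimates from each library's scatter, called 5 members lower and 0 higher, where they called 24.6% of tested genes lower and 17.6% higher, and leaving out any other library called 0. The osteoblast and cartilage markers moved in the same fit, with 5 of 8 and 2 of 2 tested lower, and their part in the members' calls was not tested.

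**Figure D2:**
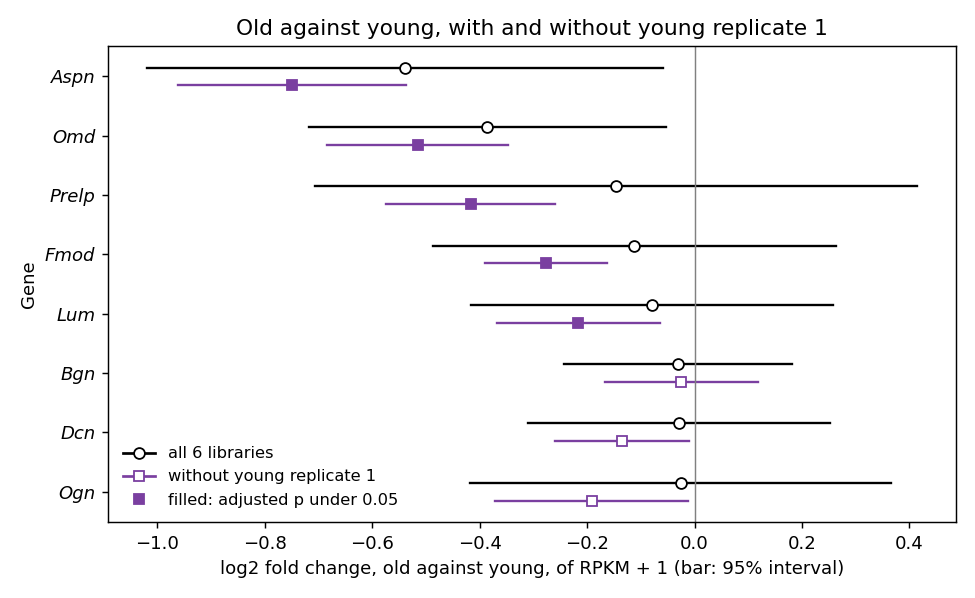
Log2 fold change of RPKM + 1, old against young, for each gene with its 95% interval, from all 6 libraries (black circles) and without young replicate 1 (purple squares); filled symbols passed an adjusted p under 0.05. No black symbol is filled, 5 purple ones are, and Bgn stays near 0 in both.

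Likeness between members was measured as the root mean square difference of 2 genes' log2(RPKM + 1) profiles, each centred on its own mean over the 6 libraries. Dcn and Lum, neighbours on chromosome 10, were the closest pair at 0.05, and Fmod and Lum followed at 0.06. Aspn and Omd differed by 0.12, while Aspn and Ogn of the same row differed by 0.27. The most distant pair was Bgn and Aspn at 0.36. These distances rest on 6 libraries that share the deviation of young replicate 1, and are a description only. They grow with a gene's own spread, and genes outside the family lay closer to each member than any other member did.

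**Figure D3:**
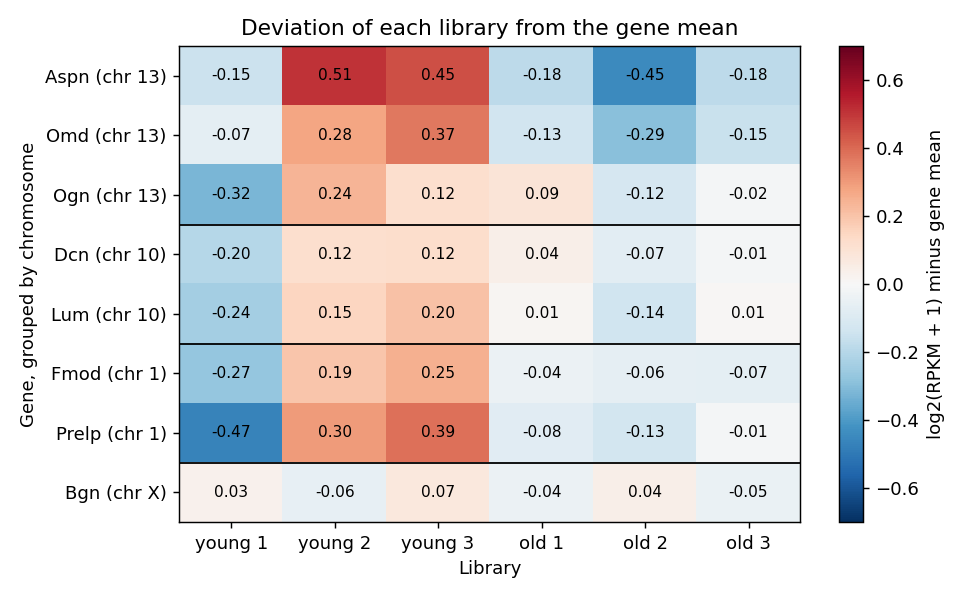
Log2(RPKM + 1) of each library minus the gene's mean over the 6 libraries, with genes grouped by chromosome (black lines) and libraries in columns. Young replicate 1 is below the gene mean in every gene but Bgn, young replicates 2 and 3 are above it in the other 7 genes, and the range is widest in Aspn and narrowest in Bgn.

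Ratios between members inside a library do not depend on its total, and were taken after the data were seen. Of 28 ratios, 10 had young and old groups that did not overlap (35.7%), where 22.7% of all 71934015 pairs of tested genes with values above 0 had such groups. Each of these 10 held Aspn or Omd, and 0 of the 15 ratios among the other 6 members separated the groups. The ratios share members and are not independent of each other. The margin was small for Bgn to Omd, at 19.4 in young replicate 1 and 19.5 in the lowest old library. The ratio of Bgn to Aspn overlapped, at 1.92, 1.14 and 1.3 in young and 1.87, 2.39 and 1.86 in old. That of Prelp to Omd overlapped too. The partners of Aspn in the separating ratios, Dcn, Fmod, Lum, Prelp and Ogn, were each lowest in young replicate 1.

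The ratio of Aspn to Ogn was 4.35, 4.61 and 4.83 in the young libraries and 3.16, 3.05 and 3.42 in the old. Here young replicate 1 lay with its group, and the mean was 4.6 ± 0.241 in young and 3.21 ± 0.188 in old (SD, n = 3 each). The ratio of Lum to Omd was 2.73, 2.76 and 2.68 in young and 3.44, 3.51 and 3.49 in old, the tightest of the 10 within groups. The ratio of Omd to Ogn was 0.43, 0.376 and 0.439 in young and 0.303, 0.31 and 0.322 in old, although both genes lie in the same chromosomal row. The ratio of Aspn to Omd overlapped between groups, at 10.1 to 12.3 in young and 9.85 to 10.6 in old, as did that of Dcn to Lum, at 1.68 to 1.84 and 1.75 to 1.87. The ratios were not tested, and 3 against 3 libraries cannot go below p = 0.1 in an exact two-sided permutation test. The ratio of Aspn to each other tested gene was lower in old without overlap for 54.9% of genes, and that of Omd for 50.6%. With Bgn in their place it was 10.1%, 10.4% with Ogn, 12.5% with Dcn, 14.4% with Prelp, 15% with Lum and 17.5% with Fmod. Ratios of Aspn to other members were lower in old without overlap in 5 of 7, and those of Omd likewise in 5 of 7.

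**Figure D4:**
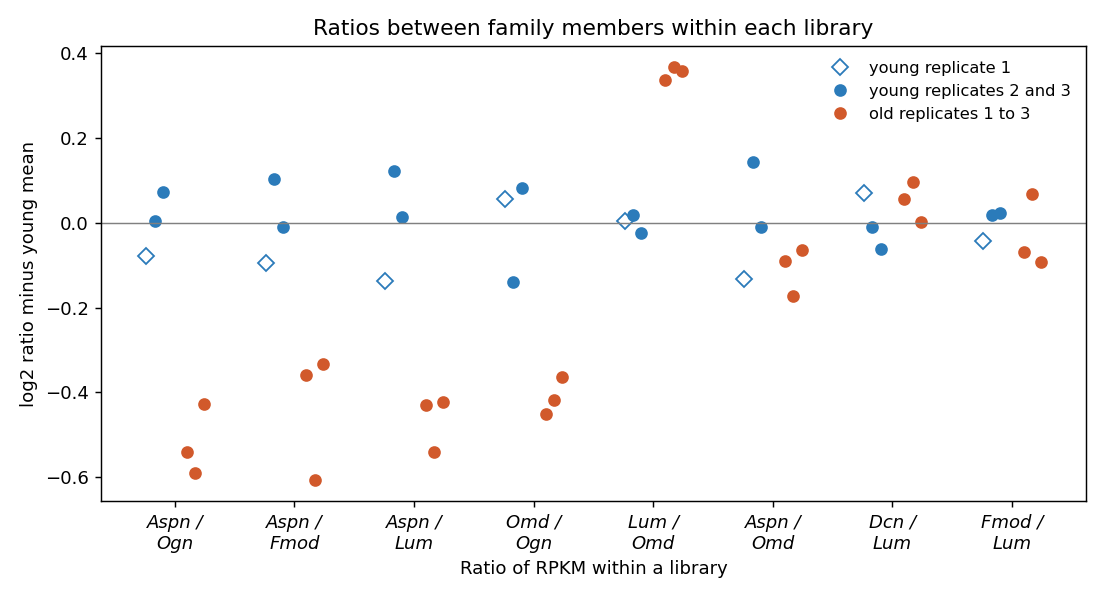
Log2 ratio of RPKM between 2 members within each library, minus the mean of the 3 young libraries, for 8 of the 28 ratios; 1 point per library. In the first 5 ratios, which hold Aspn or Omd, young replicate 1 (open diamond) lies on the young side of all old libraries, while the last 3 overlap.

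Genes next to the members were examined at each locus. Ecm2, which lies before Aspn and encodes a leucine-rich repeat matrix protein, was at 1.28, 2.25 and 2.07 RPKM in young and at 1.41, 1.21 and 1.52 RPKM in old. Like Aspn it was highest in young replicates 2 and 3, and limma called it lower in old without young replicate 1 (log2 fold change -0.41, limma adjusted p = 0.0118, against -0.25 and adjusted p = 0.685 with all libraries). Cenpp, on the other strand, was at 8.72, 7.57 and 6.88 RPKM in young and at 6.09, 6.39 and 5.59 RPKM in old, with young replicate 1 the highest. Its log2 fold change was -0.31 ± 0.11 (SE, limma adjusted p = 0.364). Nol8, the next tested gene after Ogn, had 10.7 ± 0.669 RPKM in young against 10.8 ± 0.362 in old (SD, n = 3 each). The nearest tested genes of the other loci, Btg1, Atp2b1, Zc3h11a, Btg2, Haus7 and Slc6a8, had limma adjusted p-values of 0.642 to 0.995. Without young replicate 1, Zc3h11a was lower in old (log2 fold change -0.27, limma adjusted p = 0.0415) and the other 5 had adjusted p-values of 0.0547 to 0.958.

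The genes of nearest profile outside the family were named by the same distance, 2 for each member. For Aspn they were Plagl1, an imprinted zinc finger gene, and Prc1, a regulator of cell division, at 0.06 each. For Omd they were Sfrp2, a secreted Wnt modulator, at 0.02, and Foxm1, a transcription factor of the cell cycle, at 0.04. Sfrp2 was at 80.6, 99.5 and 111 RPKM in young and at 75.6, 69.1 and 76.9 RPKM in old, higher than Omd in every library. For Fmod they were Slc4a3 and Bcl2l2, for Dcn Tmtc4 and Erich1, for Lum Chfr and Zfp160, for Prelp Peg13 and Tmem184c, for Ogn Gga3 and Ing5, and for Bgn Nagpa and Mrpl45, at 0.01 to 0.04.

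Of 10 further small leucine-rich genes, 4 passed the filter (Ecm2, Tsku, Podn and Podnl1) and 5 stayed under 1 RPKM in all libraries. Podnl1 was the highest, at 3.68 to 5.1 RPKM, and limma called 0 of the 4 with all libraries. Kera and Epyc, which lie beside Lum and Dcn in the genome, stayed at 0 to 0.0264 and 0 to 0.0677 RPKM, and Optc, near Prelp, at 0.0721 to 0.359 RPKM. Tsku, a secreted antagonist of several growth factors, went the other way from most of the 8 members. It was at 0.778, 1.22 and 1.2 RPKM in young and at 1.72, 1.84 and 1.83 RPKM in old, without overlap. Its log2 fold change was 0.44 ± 0.11 (SE, limma adjusted p = 0.16), and without young replicate 1 it was 0.34 (limma adjusted p = 0.00994).

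Young replicate 1 lay below both other young libraries in 12 of 12 tested collagen partners, where 57.2% of all tested genes had it there. Of these 12, of 13 listed, limma called 0 with all libraries. Without young replicate 1 it called 0 higher and 8 lower, where 19.4% of tested genes were lower, and the median log2 fold change moved from 0.02 to -0.34. Col1a2, a chain of type I collagen, was at 617, 1012 and 949 RPKM in young and at 759, 705 and 734 RPKM in old. Its log2 fold change was -0.20 ± 0.20 (SE, limma adjusted p = 0.9), and -0.42 without young replicate 1 (limma adjusted p = 0.00584). Col6a2 and Col5a3, of collagens VI and V, had the smallest p of this list but were far from passing (limma adjusted p = 0.84 and 0.81). They were at 122 to 297 and 10.4 to 20.2 RPKM in young and at 284 to 296 and 19.1 to 21.2 RPKM in old. Their log2 fold changes were 0.41 and 0.32 with all libraries, and -0.01 and 0.03 without young replicate 1.

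Enzymes that build the sugar chains were tested in 2 lists. Of 18 tested genes of chondroitin and dermatan sulfate synthesis, of 25 listed, limma called 0 with all libraries, and the median log2 fold change was -0.02. Without young replicate 1 it called 4 lower (Csgalnact2, Chsy1, Ust and Slc35b2). In that fit 19.4% of all tested genes were lower, a share close to that of this list. Csgalnact2, which starts chondroitin chains, was at 7.34, 14.7 and 12.8 RPKM in young and at 9.01, 7.43 and 9.96 RPKM in old. Without young replicate 1 its log2 fold change was -0.60, and that of Chsy1, which extends the chains, was -0.49 (limma adjusted p = 0.0129 for both). B3gat3, which completes the linker shared by these chains, was at 16.3 RPKM in young replicate 1 and at 7.84 to 9.21 RPKM in the other 5 libraries. Of 5 tested keratan sulfate genes, of 9 listed, 0 were called with all libraries and B4galt1, a galactosyltransferase, was lower without young replicate 1 (log2 fold change -0.27, limma adjusted p = 0.0222).

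Binding partners and proteases were tested as well. Of 9 tested ligands and receptors, of 15 listed, limma called 0 with all libraries. Without young replicate 1, where 13.2% of all tested genes were higher and 19.4% lower, it called 3 higher and 0 lower. These were Tgfb3, Wisp1, a secreted matrix protein that binds decorin and biglycan, and Tlr2, a receptor for free biglycan. Tgfb3 was at 15.4, 22 and 20.3 RPKM in young and at 27.8, 27.8 and 26.6 RPKM in old, and its log2 fold change was 0.50 ± 0.14 (SE, limma adjusted p = 0.223). Wisp1 was at 3.12 ± 0.238 RPKM in young against 4.53 ± 0.145 RPKM in old, and Tlr2 at 0.726 ± 0.13 and 1.15 ± 0.0505 RPKM (SD, n = 3 each). Only old libraries of Tlr2 reached 1 RPKM, so the filter itself fixed its direction. In all 3 the old libraries lay above every young one. Of 7 tested proteases, of 13 listed, 0 were called with all libraries and 4 were lower without young replicate 1 (Bmp1, Adamts4, Mmp2 and Mmp13). Mmp13, a collagenase of bone that can also cut proteoglycan cores, was at 66, 25.1 and 46.8 RPKM in young and at 12.1, 11.2 and 21.6 RPKM in old, and its log2 fold change was -1.51 ± 0.40 (SE, limma adjusted p = 0.191). Bmp1, which removes the propeptides of biglycan and osteoglycin, was at 11.5 ± 2.32 and 10.7 ± 0.345 RPKM (SD, n = 3 each).

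Other proteoglycans of the matrix and cell surface, 13 tested of 23 listed, had 0 calls with all libraries, and 2 higher (Agrn and Sdc4) and 2 lower (Sdc3 and Spock2) without young replicate 1. Of all tested genes, 13.2% were higher and 19.4% lower in that fit. Agrn, a large heparan sulfate proteoglycan, was at 1.2, 1.85 and 1.84 RPKM in young and at 3.1, 2.89 and 2.93 RPKM in old, and its log2 fold change was 0.60 ± 0.12 (SE, limma adjusted p = 0.0969). Sdc4, a transmembrane proteoglycan of focal adhesions, was at 84.7 ± 10.1 RPKM in young against 114 ± 6.16 RPKM in old (SD, n = 3 each). The median log2 fold change of this list was 0.10, beside -0.10 for the 8 members.

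**Figure D5:**
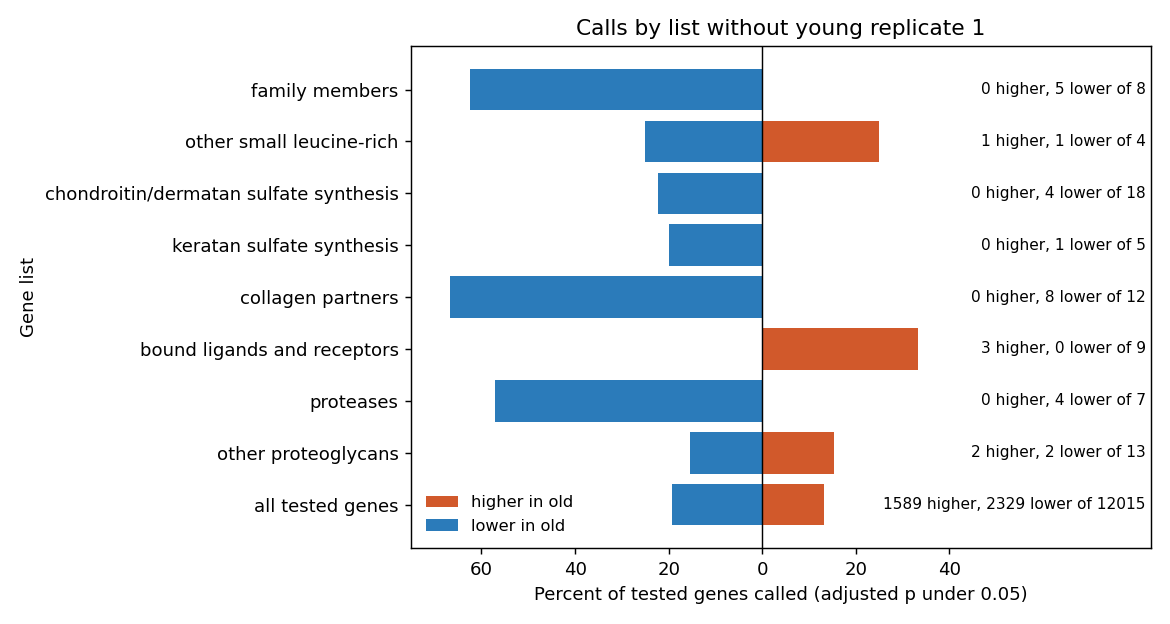
Percent of tested genes in each list of related genes (marker lists not drawn) that limma called higher (orange, right) or lower (blue, left) in old at an adjusted p under 0.05 without young replicate 1, with the counts at the right. Collagen partners (8 of 12), family members (5 of 8) and proteases (4 of 7) have the highest shares of lower genes among the lists drawn, beside 2329 of 12015 over all tested genes.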

How the data were processed

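The authors deposited 1 table of RPKM, which lists each gene's exons and length. The submitters' processing notes name fastp, STAR, HTSeq, edgeR and mm10, with no versions, and neither annotation nor strand setting is stated in what was used here. The length equalled the merged length of the listed exons in 100% of genes, and RPKM times length summed to 1000000 per library. Taking its smallest step as 1 read, reads recovered from it were whole in 100% of values within 0.01. Even numbers prevailed among genes with 1 to 5 reads (77.5 to 79.3%), so reads are not independent molecules. Chi-square per degree of freedom, over genes of 20 recovered reads or more, was 483 and 381 between young replicate 1 and the other young libraries. It was 9.51 to 23.6 between the other replicates of a group. Any excess from such reads is included, and each library was counted as 1 sample.

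Old and young were compared on log2(RPKM + 1) by limma (3.58.1, R 4.3.3), with a variance trend and two-sided tests; fold changes understate those of low genes. P-values measure the spread between libraries, which may be technical. The script was tested on simulated data that held no outlying library, so that test does not cover young replicate 1. Its planted changes were larger than any seen in the members. Levels, ratios and promoter matches were computed in Python 3.11.15. The members and lists were chosen with earlier results of these data known. Named genes were the members, up to 3 genes of smallest p and those called in each list, overlapping and neighbouring genes, and 2 genes of nearest profile per member with at least 0.5 times its SD. Genes named as called without young replicate 1, and single markers, were chosen after their values were seen.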

Additional observations from a re-analysis of the deposited data

How the results depend on the processing

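Alternatives were other pseudocounts (0.1 and 0.5), filters, scalings, variance models, library weights, an adjusted p under 0.1, limma's voom on recovered reads, a replicate block and omission of single libraries. The members' count of 0 higher and 0 lower held in each of these except 2, where 5 members were lower: without young replicate 1 and with library weights. When each library was left out in turn, the members called lower ranged from 0 to 5, all tested genes called higher from 80 to 1589 and those called lower from 0 to 2329. Over all tested genes, main counts were 177 higher and 12 lower, library weights called 2119 higher and 2957 lower, a mean RPKM of at least 5 called 99 higher, and an adjusted p under 0.1 called 62 lower. The replicate block called 82 higher, 0 lower and 0 members. Same-numbered young and old libraries correlated at -0.03, -0.44 and 0.33 in their deviations from group means. With 3 libraries in each group, these values cannot decide whether the numbers pair samples.

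The log2 fold changes of Aspn, Omd, Fmod and Bgn were negative under every alternative, though Bgn passed the threshold in none and the other 3 only in the 2 named above, with values of -0.75 to -0.42, -0.52 to -0.30, -0.28 to -0.02 and -0.07 to -0.002 over the left-out libraries. The sign of the other 4 turned when some library was left out: Dcn ranged from -0.14 to 0.024, Lum from -0.22 to 0.00304, Prelp from -0.42 to 0.0105 and Ogn from -0.19 to 0.0865. The cause of these shifts was not tested. Prelp has no value at a mean RPKM of at least 5, since it did not pass that filter.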
